A study of Danio rerio with 6 samples.

Results

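Of the interferon-stimulated and innate immune genes asked for by name, 7 of 10 were measured, each by 1 probe set, of 8793 named genes on the array: isg15, isg20, irf1a, irf1b, irf7, socs3a and socs3b. Members were the genes of probe sets whose single gene symbol in the platform annotation was one of the 10, and the question was whether isg15 and isg20 were raised alone. The other 3 genes were not analysed here. The genes isg15 and isg20 were picked because of their difference in this same comparison, so their values are a description and were not tested.

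Interferons are secreted proteins that bind cell surface receptors. The receptors activate JAK kinases, which activate STAT transcription factors, and STATs together with interferon regulatory factors (IRFs) switch on antiviral genes known as interferon-stimulated genes. In mammals ISG15 is a ubiquitin-like protein that is attached to other proteins, and ISG20 is an exonuclease that degrades RNA. SOCS proteins feed back on cytokine receptors and JAK kinases. In the early zebrafish embryo the first macrophages are only beginning to form, and most cells are not immune cells.

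Total RNA of whole AB strain embryos, taken 12 h after fertilisation (6 somites), was hybridised to 6 Affymetrix arrays, 1 for each sample. The 3 control samples are labelled as wild type control embryos. The 3 Ovo1 morphant samples are labelled as wild type embryos that received a morpholino, an antisense oligomer, against the zinc finger factor Ovo1, with the genotype sox10(7.2):gfp, a reporter driven by sox10 sequence. The design text gives that reporter in both groups, while the sample labels name it for morphants. The labels do not say whether controls were injected or received another oligomer. An effect of injection or of any morpholino therefore cannot be told apart from an effect of losing Ovo1. If only morphants carried the reporter, as the sample labels read, the same holds for an effect of the reporter line. Separate clutches are not stated either, so each p-value reflects only the spread among these arrays, and that spread may be technical.

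The median deposited intensity was 132.73 to 154.08 per array, and precision is limited by having 3 arrays in a group. The 25th percentile of the arrays lay between 34.86 and 37.39 and is used here as a mark of a dim signal, because no detection calls were used. Of 22 markers of the germ layers and tissues of a whole embryo, 20 lay above that percentile on all 6 arrays. The endoderm genes sox32 and sox17 lay below it on 6 and on 2 arrays. In RNA of whole embryos, fewer cells of a type and less RNA per cell cannot be told apart.

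The ubiquitin-like modifier gene isg15 had intensities of 21.95, 14.39 and 28.70 in controls 1 to 3 and of 454.31, 649.33 and 462.53 in morphants 1 to 3. All 3 control readings were dim, below the 25th percentile of their arrays, and all 3 morphant readings lay far above the controls. The mean intensity was 21.7 ± 7.16 in controls and 522 ± 110 in morphants (SD, n = 3 each), a ratio of 24.1. On the normalized log2(intensity + 16) scale, used for every log2 difference here, morphants lay 3.86 ± 0.18 above controls (difference ± SE), the second highest increase of the 15502 probe sets. The size of this difference rests on how near the controls were to the floor, since it was 4.59 with a pseudocount of 1 and 2.77 with one of 64.

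The exonuclease gene isg20 had a clear signal in controls already, with intensities of 630.14, 704.28 and 594.07. In morphants 1 to 3 it read 1261.19, 1505.13 and 1125.78, so every morphant array was above every control array. Its mean was 643 ± 56.2 in controls and 1297 ± 192 in morphants (SD, n = 3 each), a ratio of 2.02. The log2 difference was 1.01 ± 0.12, which ranked 107 among the increases of the 15502 probe sets. The differences within same-numbered control and morphant arrays ran from 0.98 to 1.04 for isg20, close to each other, and were 3.75, 4.39 and 3.43 for isg15. Unlike isg15, its size hardly moved with the pseudocount or any other setting tried with all 6 arrays, at 0.96 to 1.03.

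**Figure D1:**
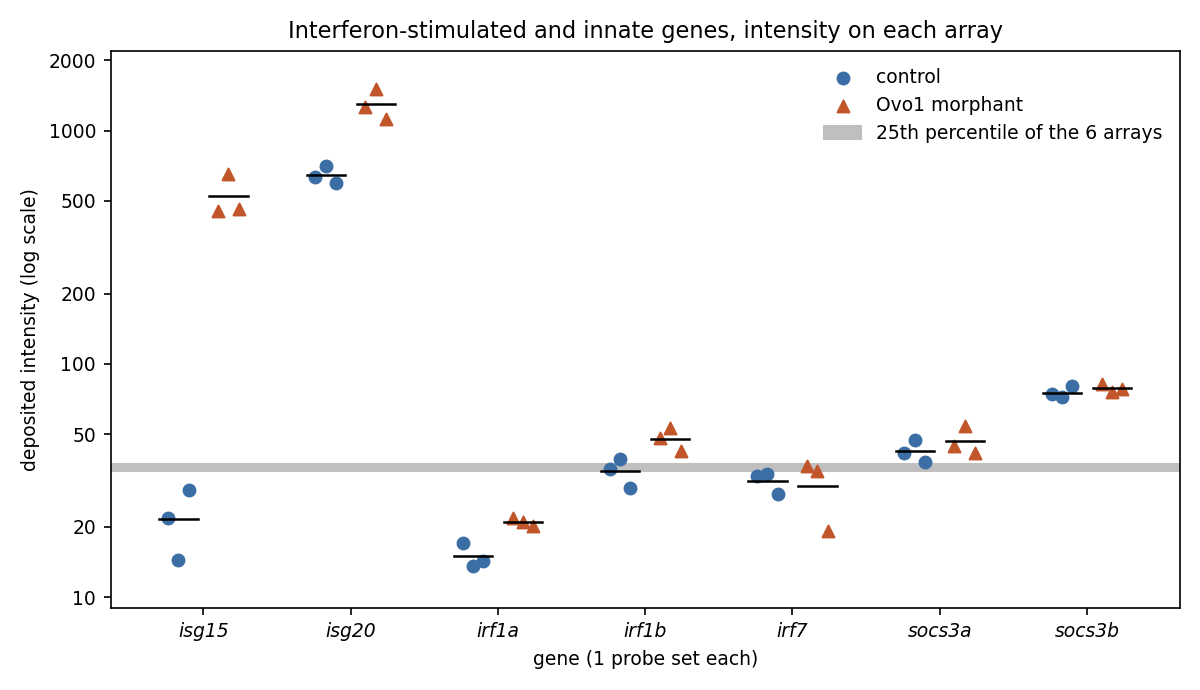
Deposited intensity (log scale) of each measured gene on each of the 6 arrays, with controls as circles, Ovo1 morphants as triangles and group means as bars (n = 3 each). Morphant readings of isg15 and isg20 lie far above the controls, while the other 5 genes read between 13.60 and 81.76 in both groups, around or near the 25th percentile of the arrays (grey band).

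The interferon regulatory factors were measured by irf1a, irf1b and irf7. The pair irf1a and irf1b are zebrafish counterparts of IRF1, a transcription factor that interferon gamma induces in mammals. In irf1a the controls read 17.12, 13.60 and 14.31 and the morphants 21.87, 20.94 and 20.17. In irf1b the controls read 35.36, 39.22 and 29.24 and the morphants 48.06, 53.06 and 42.22. The readings of irf1a were dim on all 6 arrays and those of irf1b on 2, and in both genes every morphant lay above every control.

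Neither irf1 gene passed limma's test (p-values adjusted by Benjamini and Hochberg's method over the whole array), with log2 differences of 0.27 ± 0.09 in irf1a (adjusted p = 0.127) and 0.35 ± 0.13 in irf1b (adjusted p = 0.174). With the replicate number as a block, irf1b did pass (adjusted p = 0.0383) and irf1a did not (adjusted p = 0.0756). The 95% intervals of the fold change in intensity + 16, which understates the change of dim genes, reached up to 1.39 in irf1a and 1.56 in irf1b. At such low intensities the pseudocount holds their differences down. With a pseudocount of 1 the log2 differences were 0.49 and 0.47, and neither passed.

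In mammals IRF7 amplifies the production of type I interferon. The gene irf7 read 33.13, 33.86 and 27.82 in controls and 36.45, 34.62 and 19.12 in morphants, so the groups overlapped. It was dim on all 6 arrays and its log2 difference was −0.05 ± 0.16 (limma, adjusted p = 0.910), with morphant 3 as the lowest array of all.

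The feedback genes socs3a and socs3b are induced downstream of STAT3 in many tissues. In socs3a the controls read 41.58, 47.40 and 37.83 and the morphants 44.39, 54.16 and 41.49. In socs3b the controls read 73.94, 71.93 and 80.22 and the morphants 81.76, 76.08 and 78.32. The groups overlapped in both genes, with log2 differences of 0.11 ± 0.13 and 0.06 ± 0.11 that did not pass (limma, adjusted p = 0.719 and 0.840). On the same scale the 95% intervals of the fold change reached up to 1.34 and 1.24.

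Beside isg15 and isg20, then, 0 of the 5 other measured genes passed the test, and 2 had a raw p under 0.05, against 21.3% of all probe sets. Over all 15502 probe sets 5.72% were called, 2.59% as higher and 3.12% as lower in morphants. With the replicate block 1 of the 5 was called higher, against 18.6% of all probe sets called, 8.82% as higher and 9.83% as lower. The groups did not overlap, with morphants on the higher side, in 2 of the 5, against 10.0% of all probe sets. The median log2 difference of the 5 was 0.11, and that of all probe sets was −0.001. Whether the differences of isg15 and isg20 exceed those of the others was not tested, as they were chosen on this comparison.

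**Figure D2:**
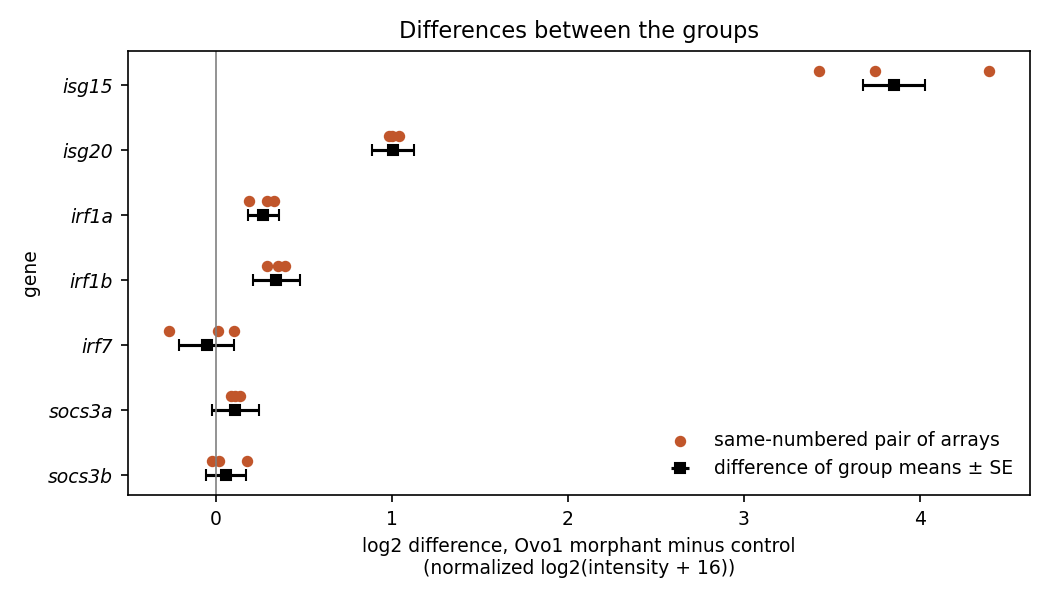
Difference between Ovo1 morphants and controls in normalized log2(intensity + 16) for each measured gene, as the difference of group means with its SE (squares, n = 3 per group) and as the difference within each same-numbered pair of arrays (circles). The genes isg15 and isg20 stand at 3.86 and 1.01, and the other 5 between −0.05 and 0.35.

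The wider pathway was followed in 12 gene lists of interferon signalling and innate immunity, which held 93 measured genes besides isg15 and isg20. Of these 93, 1 was called higher, 2 were called lower and 90 did not pass (limma, adjusted p), and 17 had a raw p under 0.05, against 2.59%, 3.12% and 21.3% of all probe sets called higher, called lower and with such a raw p. With the replicate block 4 were higher and 11 lower, against 8.82% and 9.83%. The groups did not overlap in 9 genes on the higher side and 12 on the lower side, against 10.0% and 14.3% of all probe sets. The median log2 difference was 0.03. Of the 93, 26 were dim, below the 25th percentile on all 6 arrays, which limits how small a change in them could be seen. By definition 25% of all probe sets lie below that percentile on each array, so at most 25% lie below it on all 6. The share below it on all 6 arrays was not counted.

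At the top of the pathway, the interferon gene ifnphi1 was near the floor, at 7.88, 11.23 and 9.16 in controls and 11.19, 8.76 and 9.03 in morphants. The receptor subunit gene crfb1, part of a zebrafish receptor for these interferons, read 43.50 to 48.35 in controls and 48.70 to 53.57 in morphants, a difference of 0.14 ± 0.11 (limma, adjusted p = 0.545). The receptor gene ifngr2 differed by 0.02 ± 0.12. Neither the ligand nor either receptor passed the test.

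Among 9 genes of the JAK kinase, STAT and PIAS list, which also held stap2a, none passed (limma, adjusted p at least 0.117). Of the 9, 2 had a raw p under 0.05, against 21.3% of all probe sets. The kinase genes jak1, jak2a and jak2b, which sit directly behind cytokine receptors, differed by 0.09 ± 0.09, 0.30 ± 0.13 and 0.17 ± 0.12. The lowest was pias2, whose mammalian counterpart binds STAT proteins, at −0.25 ± 0.08 (adjusted p = 0.117), which passed with the replicate block (adjusted p = 0.0391).

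Of 10 genes in the IRF list 5 had a raw p under 0.05 (limma), against 21.3% of all probe sets. The median log2 difference was 0.22, with 7 of the 10 above 0. Over all probe sets the median was −0.001, and 7711 of 15502 lay above 0. Not all of the 10 are IRFs. The list also held the IRF2-binding protein genes irf2bp1, irf2bp2a, irf2bp2b and irf2bpl, at −0.003, 0.371, 0.217 and 0.325. Of these, irf2bp2a and irf2bpl were among the genes with a raw p under 0.05. The value of irf2bp2b, which lies next to the list median, was imprecise (0.217 ± 0.382). The other probe set of irf2bp2b differed by 0.002 ± 0.118. By adjusted p 1 of the 10 was higher and 0 lower, against 2.59% and 3.12% of all probe sets. With the replicate block 2 were higher and 1 lower, against 8.82% and 9.83%. The 1 gene higher without the block was irf2bp2a, whose mammalian counterpart is a corepressor that binds IRF2. It read 722.98, 737.82 and 778.71 in controls and 857.29, 1010.23 and 993.44 in morphants. This was a difference of 0.37 ± 0.09 (limma, adjusted p = 0.0444). The call ended without any single array except morphant 1 (adjusted p up to 0.174). The factor irf2a read 129.28 to 155.69 in controls and 62.35 to 106.64 in morphants, with no overlap. Its difference of −0.59 ± 0.18 did not pass (adjusted p = 0.102), and did with the replicate block (adjusted p = 0.0236). The gene irf9, whose mammalian product is part of a complex that drives interferon-stimulated genes, was dim on all 6 arrays and differed by 0.04 ± 0.11. The gene irf5, a regulator of inflammatory cytokines in mammals, differed by 0.22 ± 0.12 (adjusted p = 0.339).

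Among sensors of foreign nucleic acid and their adaptors, 4 genes were measured and none passed (limma, adjusted p at least 0.458). None of the 4 had a raw p under 0.05, against 21.3% of all probe sets. The mitochondrial adaptor gene mavs differed by 0.05 ± 0.10, the kinase gene tbk1 by −0.17 ± 0.11 and the receptor gene tlr21 by 0.05 ± 0.13. Of these, mavs and tlr21 were dim on all 6 arrays.

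The list closest to isg15 and isg20 held 21 other interferon-stimulated effectors and antigen-processing genes. Of these 0 were higher and 1 was lower (limma, adjusted p), against 2.59% and 3.12% of all probe sets. The median was 0.02, and 4 had a raw p under 0.05, against 21.3% of all probe sets. The antiviral GTPase gene mxa, a standard marker of the zebrafish interferon response, read 13.95, 12.56 and 15.08 in controls and 23.94, 18.12 and 16.73 in morphants. Every morphant was above every control, but the gene was dim on all 6 arrays and its difference of 0.26 ± 0.10 did not pass (adjusted p = 0.184; 0.110 with the block). On this scale no other gene of this list lay further above 0 than mxa. The pseudocount holds the differences of such dim genes down. As a ratio of mean deposited intensities, mxa stood at 1.41, ifi44a1 at 1.42 and pkz at 1.36.

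Other effectors gave no uniform picture. The kinase gene pkz, a fish relative of the RNA-activated kinase PKR, read 6.12 to 10.52 in controls and 10.68 to 12.00 in morphants and differed by 0.19 ± 0.10 (limma, adjusted p = 0.312). The gene ifi44a1 differed by 0.18 ± 0.10 and ifi35 by −0.23 ± 0.13, and neither passed. The called gene was ifi30a, whose mammalian counterpart is a lysosomal thiol reductase of antigen processing. It fell, from 3138.10, 3788.31 and 3824.66 in controls to 2377.64, 2894.81 and 2514.93 in morphants. This was a difference of −0.40 ± 0.09 (adjusted p = 0.0370). Its call ended without control 2, control 3, morphant 2 or morphant 3 (adjusted p up to 0.157).

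With the replicate block 4 of the 21 effectors were lower and 0 higher, against 9.83% and 8.82% of all probe sets. Besides ifi30a these were gbp1, a guanylate-binding protein gene, and psme1 and psme2, the subunits of the proteasome activator that interferon gamma induces in mammals. Their differences were −0.45 ± 0.21, −0.58 ± 0.24 and −0.44 ± 0.17, with blocked adjusted p of 0.0240, 0.0220 and 0.0215 (limma).

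The list drawn up around ISG15 conjugation had 7 measured genes. It also holds relatives of the mammalian enzymes for ISG15 and a deubiquitinase gene, so not every member attaches ISG15. In mammals UBA7 is the activating enzyme for ISG15. The zebrafish gene uba7 read 49.75, 47.14 and 52.28 in controls and 38.48, 46.03 and 44.98 in morphants, all morphants below all controls, with a difference of −0.14 ± 0.11 that did not pass (limma, adjusted p = 0.537). The conjugating enzyme genes ube2l3a and ube2l3b, close relatives of the mammalian enzyme for ISG15, differed by −0.12 ± 0.09 and −0.26 ± 0.09 without passing (adjusted p = 0.524 and 0.152). Of the 7, 0 were higher and 1 was lower (limma, adjusted p), against 2.59% and 3.12% of all probe sets. A raw p under 0.05 was found in 2, against 21.3%. With the replicate block 1 was higher and 1 lower, against 8.82% and 9.83%. The 1 gene called without the block was the deubiquitinase gene otub1b, which fell from 943.26 to 974.57 in controls to 672.60 to 781.95 in morphants. This was a difference of −0.38 ± 0.09 (adjusted p = 0.0430), and the call ended without any single array except morphant 1 (adjusted p up to 0.152). On the other side of 0, herc2, a relative of the mammalian ligase for ISG15, had the highest difference of the list, 0.41 ± 0.19, which did not pass (adjusted p = 0.265) and did with the replicate block (adjusted p = 0.0497). No other member of the exonuclease list besides isg20 was measured.

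In the SOCS list, cishb, a relative of socs3a and socs3b, came nearest to the threshold. It read 32.89, 35.10 and 36.26 in controls and 46.26, 53.87 and 49.29 in morphants, with no overlap. Its difference of 0.38 ± 0.11 had an adjusted p of 0.0859, and 0.0262 with the replicate block (limma). Its paralogue cisha differed by 0.22 ± 0.15 and socs1a by −0.15 ± 0.13, and neither passed.

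None of 8 genes of NF-kB signalling, the pathway that turns on inflammatory cytokines, passed (limma). None of the 8 had a raw p under 0.05, against 21.3% of all probe sets. The subunit genes nfkb2 and relb differed by 0.08 ± 0.17 and 0.17 ± 0.12, and the inhibitor gene nfkbiaa, itself an NF-kB target, by −0.16 ± 0.15. Of 16 complement and acute phase genes none passed, and 1 had a raw p under 0.05 (limma), against 21.3% of all probe sets. Among the 16, c3a.1, c6.2 and c7b differed by 0.14 ± 0.18, 0.008 ± 0.12 and 0.14 ± 0.12. Against 9.83% and 8.82% of all probe sets, 2 of these 16 were lower and 0 higher with the block (limma). These were c8b, a gene of the membrane attack complex, at −0.65 ± 0.19 with no overlap of the groups (adjusted p = 0.0869, and 0.00379 with the block), and cfhl4, at −0.32 ± 0.15 (adjusted p = 0.263, and 0.0321 with the block).

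None of 11 cytokine and receptor genes passed by their brightest probe set (limma). Of the 11, 2 had a raw p under 0.05, against 21.3% of all probe sets. The chemokine gene cxcl12a, which guides migrating cells in the embryo, read 459.68, 360.87 and 391.84 in controls and 311.55, 135.63 and 112.11 in morphants. Its difference was −1.16 ± 0.33 (adjusted p = 0.0782, and 0.00410 with the replicate block). A second probe set of cxcl12a, chosen after its values were seen, did pass, at −1.07 ± 0.25 (adjusted p = 0.0444). The chemokine genes cxcl12b and cxcl14 differed by −0.27 ± 0.11 and 0.47 ± 0.33 without passing, and cxcl12b passed with the block (adjusted p = 0.0247).

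**Figure D3:**
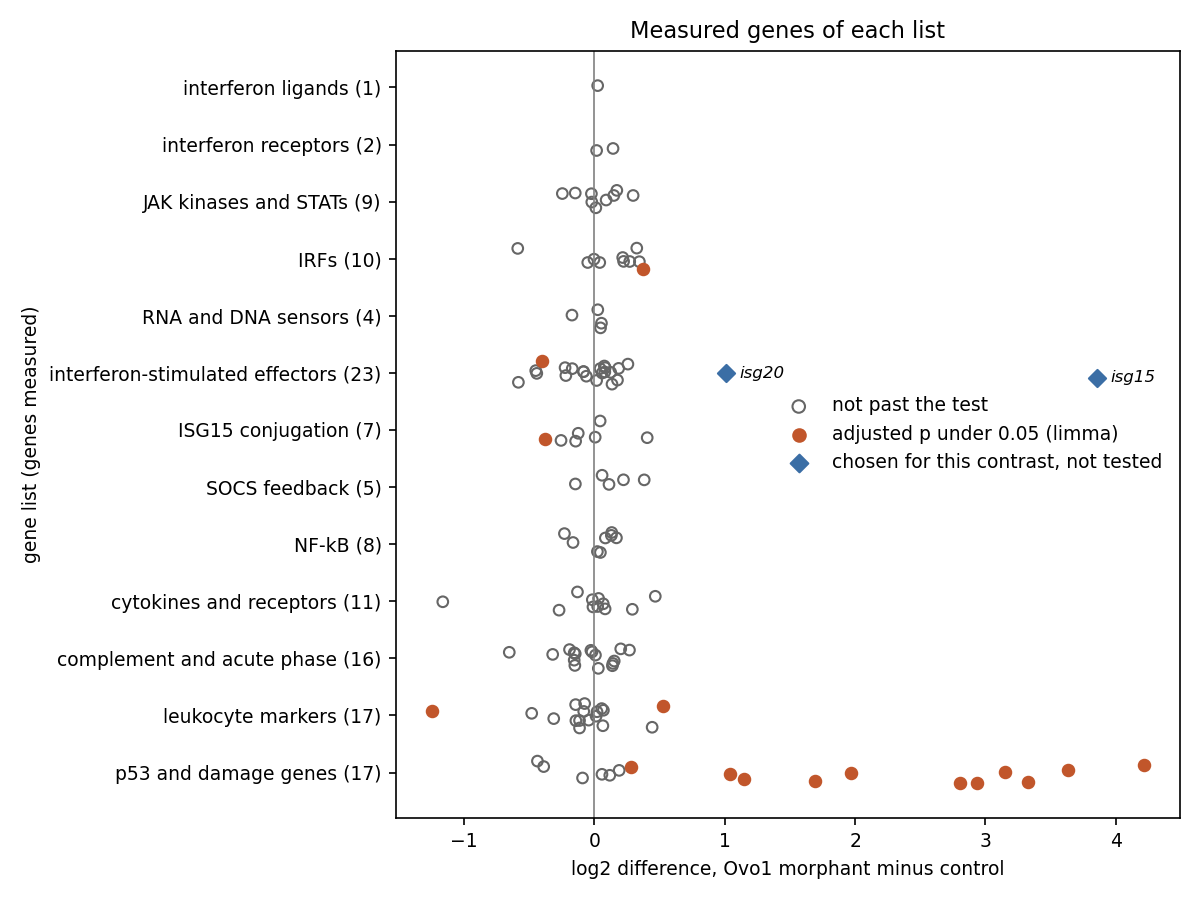
Log2 difference between Ovo1 morphants and controls (n = 3 each) for each measured gene of the interferon, innate, leukocyte and damage lists, 1 point per gene and list with vertical scatter added for sight, filled where the adjusted p was under 0.05. Outside the p53 and damage genes and the leukocyte markers, 1 gene was called higher and 2 lower, and isg15 and isg20, drawn as diamonds and not tested, lie to the right of every other gene of the 12 interferon and innate lists.

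Markers of leukocytes, the cells that carry much of innate immunity, were read beside these values. Of 17 measured markers 1 was higher and 1 lower (limma, adjusted p), against 2.59% and 3.12% of all probe sets. With the replicate block 2 were higher and 2 lower, against 8.82% and 9.83%. The summed intensity of the markers was 4151.1 to 4915.6 in controls and 3251.4 to 3996.1 in morphants, a sum led by cebpa, lcp1 and cebpb. Of these leading genes only lcp1 fell without overlap, by a log2 difference of −1.25 ± 0.23. The gene cebpa differed by −0.04 ± 0.14 with overlap, and cebpb rose by 0.53 ± 0.11. The sum therefore does not describe the markers as a whole. Of the 17 markers 8 were dim on all 6 arrays, and 7 lay above the 25th percentile on all 6, among them lcp1, coro1a and cyba. The defining markers ptprc, csf1ra and spi1b were among the 8 dim ones. The pan-leukocyte gene ptprc read 8.06 to 11.91 in controls and 7.51 to 10.85 in morphants, and the macrophage gene csf1ra 13.90 to 19.63 and 12.44 to 17.05. None of these 3 showed more signal in morphants on every array, and spi1b, the myeloid factor PU.1, differed by 0.02 ± 0.13. The marker lgals9l1, also dim on all 6 arrays, read at most 5.56 in controls and at least 6.61 in morphants. Its difference of 0.443 ± 0.145 did not pass (limma, adjusted p = 0.121) and did with the replicate block (adjusted p = 0.0409). In the other direction, cyba differed by −0.481 ± 0.214 (limma, adjusted p = 0.24, and 0.0234 with the block). A second probe set of cyba differed by −0.25 ± 0.19 and did not pass with the block (adjusted p = 0.157).

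The actin-bundling gene lcp1 fell, from 1644.15, 2042.79 and 1375.04 in controls to 798.81, 854.98 and 462.99 in morphants. Its difference was −1.25 ± 0.23 (limma, adjusted p = 0.0187), and the call ended without control 1 or control 2 (adjusted p up to 0.0891). The transcription factor gene cebpb, which acts in inflammation and in many other tissues, rose by 0.53 ± 0.11 (adjusted p = 0.0309), a call that ended without any single array except morphant 1 (adjusted p up to 0.133). The genes coro1a and mpx differed by −0.14 ± 0.21 and −0.11 ± 0.19 without passing.

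**Figure D4:**
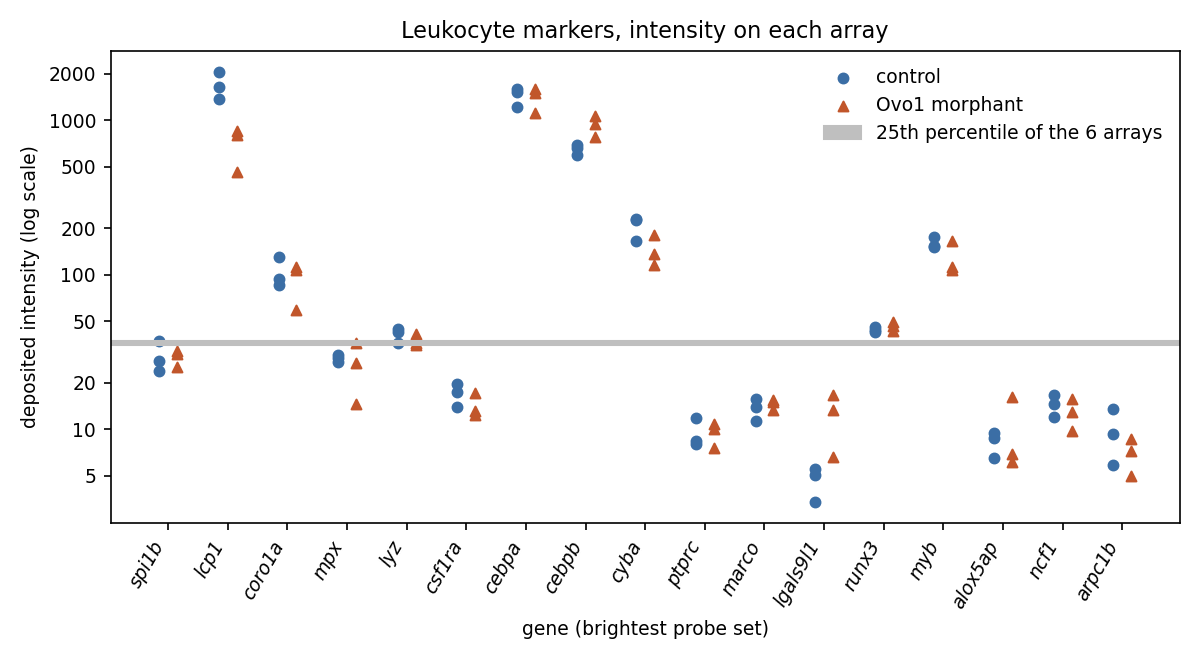
Deposited intensity (log scale) of 17 leukocyte markers on each array, with controls as circles, Ovo1 morphants as triangles (n = 3 each) and the 25th percentile of the arrays as a grey band. The markers ptprc, csf1ra and spi1b read at most 37.22 in both groups, and lcp1 lies lower on every morphant array than on any control array.

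Genes of p53 signalling and DNA damage were read beside isg15 and isg20. Of 17 measured genes 11 were higher and 0 lower (limma, adjusted p), against 2.59% and 3.12% of all probe sets, with a median log2 difference of 1.15. With the replicate block 11 were higher and 2 lower, against 8.82% and 9.83%. This list was chosen with its direction in these data known and is not independent evidence of that direction. The growth arrest gene gadd45aa, at 17.67, 7.48 and 24.83 in controls, read 583.00, 762.35 and 415.93 in morphants. The apoptosis protease gene casp8 read 28.26 to 48.00 in controls and 478.38 to 587.07 in morphants. Both resemble isg15 in having dim or near-dim controls and a high level in all 3 morphants. The called genes baxa and ccng1 encode a pore-forming apoptosis protein and a cyclin. Their differences of 1.04 ± 0.08 and 1.15 ± 0.07 were about the size of isg20. Also called were mdm2, rps27l, sesn3, phlda3, foxo3b and bbc3, between 1.70 and 3.64, and btg2, at 0.28 ± 0.07. The other 6 genes lay between −0.44 and 0.19 and did not pass. Of these, xpc and mdm4 were lower with the block (limma, adjusted p = 0.0175 and 0.0256). The other probe set of xpc differed by −0.125 ± 0.126 and did not pass with the block (adjusted p = 0.439). The part of the p53 and damage genes in the values of isg15 and isg20 was not tested.

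Markers of other tissues were read in the same comparison. Of the 22 whole-embryo markers 0 were higher and 2 lower (limma, adjusted p), against 2.59% and 3.12% of all probe sets. With the replicate block 2 were higher and 3 lower, against 8.82% and 9.83%. The neural crest marker crestin fell, from 749.42, 426.87 and 907.98 in controls to 289.92, 219.98 and 311.80 in morphants. Its difference was −1.23 ± 0.24 (adjusted p = 0.0242), and the call ended without control 1, control 3 or morphant 2 (adjusted p up to 0.105). The neural gene sox2 fell by its brightest probe set, at −0.41 ± 0.10 (adjusted p = 0.0472), a call that ended without any single array except morphant 1 (adjusted p up to 0.197). Its other 2 probe sets differed by −0.36 ± 0.11 and −0.03 ± 0.18 without passing. Their part in the values of isg15 and isg20 was not tested.

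The genes most like isg15 and isg20 over the 6 arrays were looked up separately. For each, the 5 named genes with the highest Pearson r of normalized log2 values were taken from 8793. The arrays share their group difference, so r is high for any gene with a clean separation, and it is given as a description. For isg15 these were phlda2, lyrm1, zgc:101772, aldocb and gadd45aa, with r of 0.9996, 0.9994, 0.9991, 0.9986 and 0.9973 (n = 6 arrays). In controls isg15 and these genes were lowest on array 2 and highest on array 3, and isg15 and all of them were highest on morphant 2.

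For isg20 the 5 were snrpd1, a core splicing protein gene, tsn, sik3, dhrs13a.2 and slc25a16, with r of 0.9976, 0.9957, 0.9950, 0.9945 and 0.9935. These genes differed less than isg20 itself, between 0.38 and 0.67 on the log2 scale. Between isg15 and isg20 r was 0.9599, and after removal of the group means it was −0.10. Control 3 was the highest control for isg15 and the lowest for isg20, while morphant 2 was the highest morphant for both. By this measure 136 named genes were more like isg15 than isg20 was, and 123 were more like isg20 than isg15 was.

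**Figure D5:**
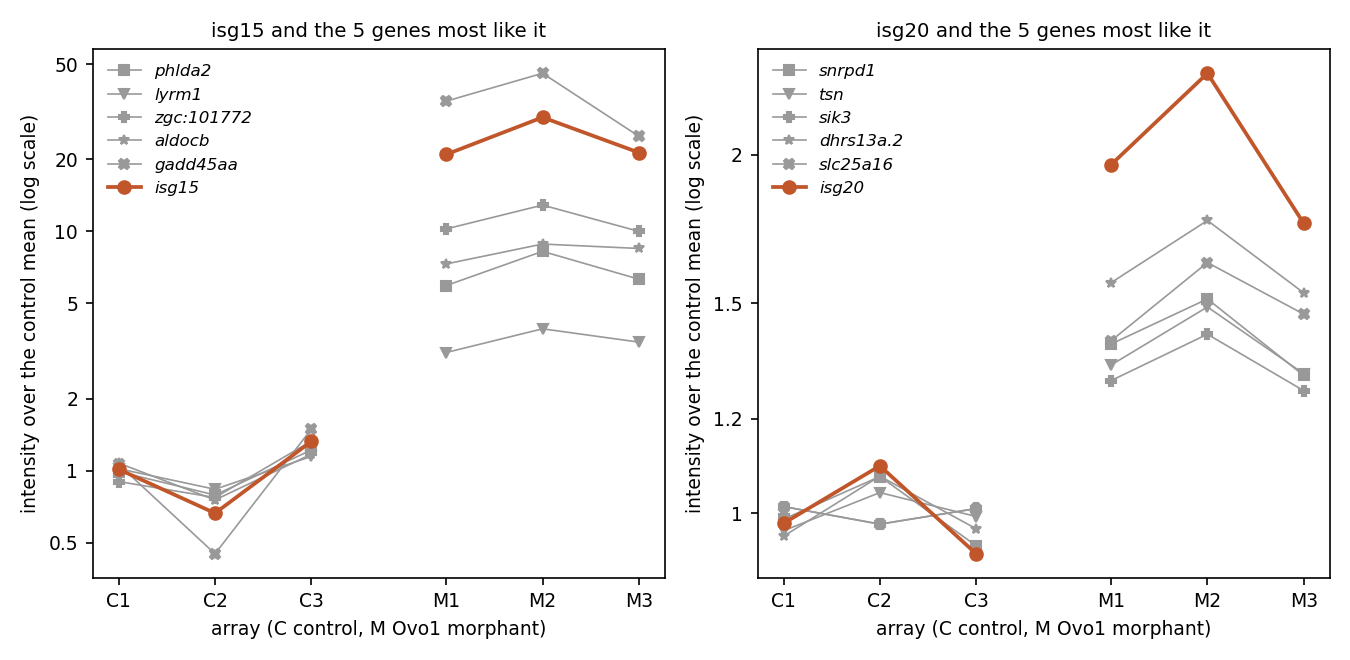
Deposited intensity divided by the control mean (log scale) on each array for isg15 (left) and isg20 (right), in colour, with the 5 named genes most like each in grey; lines join arrays of a group for sight and imply no order. The control arrays of isg15 dip on array 2, where those of isg20 peak, and r between the 2 genes within groups is −0.10.

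Genes next to the members on their chromosomes were read in the same fit. Of the 5 protein-coding genes on each side in the GRCz12tu annotation, 1 neighbour of isg15 and 3 of isg20 were measured, and none passed the test (limma, adjusted p). With the replicate block dao.1 was lower and samm50 higher (adjusted p = 0.0092 and 0.037). The neighbour of isg15 was dao.1, at −0.40 ± 0.18, and the gene next to isg20, abhd2b, differed by 0.09 ± 0.09. The other neighbours of isg20, samm50 and acanb, differed by 0.36 ± 0.14 and 0.06 ± 0.12. Around the other 5 genes, 21 measured neighbours gave no call, and with the block 1 was higher and 4 were lower. Of all probe sets 8.82% were called higher and 9.83% lower with the block, and 5.72% were called without it.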

How the data were processed

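Per the submitters' processing notes, the deposited intensity of each probe set, on a linear scale, came from PLIER in Affymetrix Expression Console 1.1, whose settings the sources used here do not give. Of 15617 probe sets, 115 Affymetrix controls were left out. Values were taken as log2(intensity + 16) and quantile-normalized. The test was limma 3.58.1 (R 4.3.3; lmFit, eBayes with an intensity trend), two-sided, with Benjamini-Hochberg adjustment over 15502 probe sets and a threshold of 0.05. Of these, 10795 had 1 symbol, updated through gene identifiers, 135 several and 4572 none. A gene was represented by its brightest probe set. The fit was tested on simulated data.

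The members and lists were chosen with earlier results of these data known. Named genes were the members, up to 6 called members and 3 further members per list, and the 5 genes most like isg15 and isg20. Some genes were chosen after their values were seen. These were named for a call that changed with the block, for groups that did not overlap, or as neighbours. Defining leukocyte markers, called whole-embryo markers and the damage genes baxa and btg2 were also chosen in this way. Same-numbered arrays deviated together (r = 0.58, 0.46 and 0.54), and the replicate block took the numbers to pair samples. The main fit left the numbers out, so its calls ignore any such pairing. Alternatives were other scalings, pseudocounts of 1 and of 64, leaving out dim probe sets, other variance moderation, the replicate block, the mean of probe sets and leaving out each array. Figures used matplotlib 3.10.9. Sequences were not analysed here.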

Additional observations from a re-analysis of the deposited data

How the results depend on the processing

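With the replicate block, 1367 probe sets were higher and 1524 lower in all, 4 and 11 in the 12 interferon and innate lists and 2 and 2 among leukocyte markers, and 2 damage genes were lower. The cause was not tested. The block brought irf1b (0.35, adjusted p = 0.0383) past the threshold, and changed no call of the other genes of the rule that were tested. In the interferon and innate lists 0 were higher and 0 lower with median centring or without the intensity trend, and 0 and 1 with the values as deposited. Of the leukocyte markers 0 were higher with median centring or the values as deposited. The log2 difference of isg15 was 4.59 with a pseudocount of 1 and 2.77 with one of 64. That of spi1b was −0.022 with the mean of its probe sets and −0.0022 with the values as deposited. Leaving out each array in turn gave 146 to 830 higher and 123 to 883 lower probe sets in all, 0 to 2 and 0 to 4 in the interferon and innate lists, 0 to 2 and 0 to 1 among leukocyte markers, and 10 to 11 higher damage genes. It gave 3.71 to 3.97 for isg15, and moved isg20 by less than the spread between replicates. Genes near 0 changed sign: irf7 (−0.14 to 0.12), ifnphi1 (−0.034 to 0.084), ifngr2 (−0.048 to 0.081), irf9 (−0.024 to 0.11), tlr21 (−0.030 to 0.17), nfkb2 (−0.036 to 0.27), c6.2 (−0.11 to 0.077), spi1b (−0.054 to 0.13), coro1a (−0.26 to 0.098) and mpx (−0.30 to 0.12). The planned count of promoter motifs was not run. Signals near the floor limit what can be seen in the dim genes.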
